A study of Sus scrofa with 6 samples.

Results

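The mesenchymal transcription factors described here are TWIST1, TWIST2, PRRX1, SNAI1, SNAI2, ZEB1, ZEB2, TBX15, GLIS1 and NFIX. They were chosen with earlier results of these data known, and their rows were picked by gene symbol. All 10 were found among the 18007 genes of the expression table. RNA-seq had been performed on 3 porcine embryonic fibroblast lines (PEF5, PEF7 and PEF8) and on the 3 porcine induced pluripotent stem cell lines made from them (piPSC5, piPSC7 and piPSC8), with 1 library per line. The fibroblasts were grown out of ear tips of embryos at embryonic day 90, from 1 cross of a Large White boar (labelled Longwhite) with a Meishan sow, so all lines share both parents. To make piPSCs, the PEFs were infected with lentivirus carrying doxycycline-inducible Oct4, Sox2, Klf4 and cMyc (OSKM) together with the M2rtTA transactivator. Colonies were isolated and expanded on feeder cells, which were mouse embryonic fibroblasts. The labels carry the same treatment text for both groups, and the study describes the PEFs as the cells before induction. Whether each piPSC line goes back to a single cell was not stated, and in values per gene any fragments of mouse feeder RNA cannot be told apart from pig ones.

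TWIST1 and TWIST2 are basic helix-loop-helix factors, SNAI1, SNAI2, ZEB1 and ZEB2 are zinc finger repressors, and these are the classical drivers of the epithelial-mesenchymal transition, in which epithelial cells lose their junctions and gain a migratory, fibroblast-like state. Many of them bind short E-box motifs and repress epithelial genes such as CDH1, which encodes E-cadherin. PRRX1 (a paired-related homeobox factor), TBX15 (a T-box factor), GLIS1 (a Krüppel-like zinc finger factor) and NFIX (a nuclear factor I protein) act in the mesenchyme of the limb, skin or skeleton, and reprogramming of mouse fibroblasts is known to begin with the reverse passage, from a mesenchymal to an epithelial state.

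To show the motif these repressors are known for, the 250 bases before the RefSeq gene start were read from the Sscrofa11.1 genome for the 10 factors, for CDH1 and for CDH2, which encodes N-cadherin. Each stretch below has 30 bases, written 5′ to 3′ on the strand of the gene, with the E-box CAGGTG or its reverse complement CACCTG in capitals.

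CDH1, chr6:18156049-18156078, minus strand: ggctgcggctggCAGGTGcaccttcagcca

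CDH1, chr6:18155998-18156027, minus strand: accttcgcggctCACCTGgctcccgcggcg

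GLIS1, chr6:158672551-158672580, plus strand: ctggagattcgtCACCTGccctgggacctt

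GLIS1, chr6:158672605-158672634, plus strand: aactgtgcttggCAGGTGactgcctggtgc

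ZEB1, chr10:42012997-42013026, plus strand: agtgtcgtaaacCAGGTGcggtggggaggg

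SNAI1, chr17:51546330-51546359, plus strand: cagccccaggcgCACCTGcttggggcgtgg

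CDH2, chr6:112629282-112629311, minus strand: ccgcagcccctaCACCTGccgggcagtgct

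The CDH1 motifs began 80 and 29 bases before the gene start, and those of GLIS1 174 and 120 bases before it. Of the 10 factors, 3 had CAGGTG on either strand of this window, against 19.6% of 19556 windows of protein-coding genes, and 5 had the general E-box CANNTG, which includes CAGGTG, against 61.9%. The windows of TWIST1, TWIST2, ZEB2, TBX15 and NFIX held no CANNTG. These are matches of letters, not sites shown to be bound.

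The libraries held between 11010629 and 17836510 fragments. The labelled identities were checked first. All 8 fibroblast markers (COL1A1, COL1A2, COL3A1, THY1, PDGFRA, PDGFRB, DCN and LUM) were present in every PEF library and fell in piPSCs, with a summed level in FPKM (fragments per kilobase of gene model, scaled to the total fragments of the library) of 4293 to 6088 in PEFs and 128 to 215 in piPSCs. Of 7 pluripotency markers, NANOG, SALL4 and ESRRB stayed under 0.1 FPKM in all 6 libraries, and POU5F1 and LIN28A were not analysed here. SOX2 and LIN28B were at 0.0367 FPKM or less in every PEF library. In piPSC5, piPSC7 and piPSC8, SOX2 was at 3.01, 2.49 and 0.129 FPKM and LIN28B at 2.51, 0.281 and 8.90 FPKM, above all PEF values, but the piPSC libraries varied and neither was called (limma adjusted p = 0.0626 and 0.0667). SOX2 is also among the delivered OSKM factors, and whether fragments of the delivered copy were counted was not tested. The summed pluripotency markers, SOX2 included, were at 0.0247 to 0.0854 FPKM in PEFs and at 2.87 to 9.03 FPKM in piPSCs. The study describes the lines as male, whereas the Y-linked gene DDX3Y had 3439 and 4207 fragments in PEF8 and piPSC8 and 0 in the libraries of lines 5 and 7. Summed markers of other cell types were low beside those of fibroblasts, but not always beside the pluripotency markers. In piPSC7, the keratinocyte, skeletal muscle, melanocyte, and blood and macrophage sums exceeded the pluripotency sum. In piPSC5 and piPSC8, the sums of these other cell types stayed below it. The fibroblast sum exceeded the pluripotency sum in every piPSC library. Keratinocyte markers reached 3.36 FPKM in PEFs and 9.09 in piPSCs, chondrocyte markers 4.56 and 0.247, skeletal muscle markers 0.771 and 14.2 (nearly all DES in piPSC7), endothelial markers 9.41 and 1.19, blood and macrophage markers 24.4 and 4.21, melanocyte markers 28.7 and 4.83, and Schwann cell markers 5.01 and 0.318. Their part in the results below was not tested.

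The question was which of these factors went down when fibroblasts were turned into piPSCs, and how far. Of the 10 factors, 8 fell (TWIST1, TWIST2, PRRX1, SNAI1, SNAI2, TBX15, GLIS1 and NFIX), 0 rose, and ZEB1 and ZEB2 were not called. A call needed a limma adjusted p under 0.05 together with a 2-fold or larger change of (FPKM + 1), and by this rule 16.7% of the 12428 genes tested were lower and 20.2% higher. All 10 factors passed the filter for testing, a mean of at least 0.5 FPKM. Lower at an adjusted p under 0.05 with any fold were 9 of the 10 (the 8 and ZEB2), against 21.5% of all genes. In the same 9, every piPSC value lay below every PEF value, which was so for 26.8% of all genes. The median log2 fold change of (FPKM + 1), piPSC minus PEF, was -1.90 over the 10 factors and 0.20 over all genes tested. Because the factors were chosen with earlier results of these data known, the values over all genes are a reference only. No enrichment of the factors is read from them. When each library was rescaled to the median ratio over genes, the median of all genes moved to -0.01 and the split of calls over all genes moved from 2070 lower and 2505 higher to 2511 lower and 1879 higher, while 9 of the 10 factors were called lower. With rescaling to equal sums these were 2815 lower and 1986 higher, again with 9 factors lower. Other alternatives gave fewer: 7 factors were lower with the lines paired as a replicate block, and 6 to 8 when 1 library was left out.

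**Figure D1:**
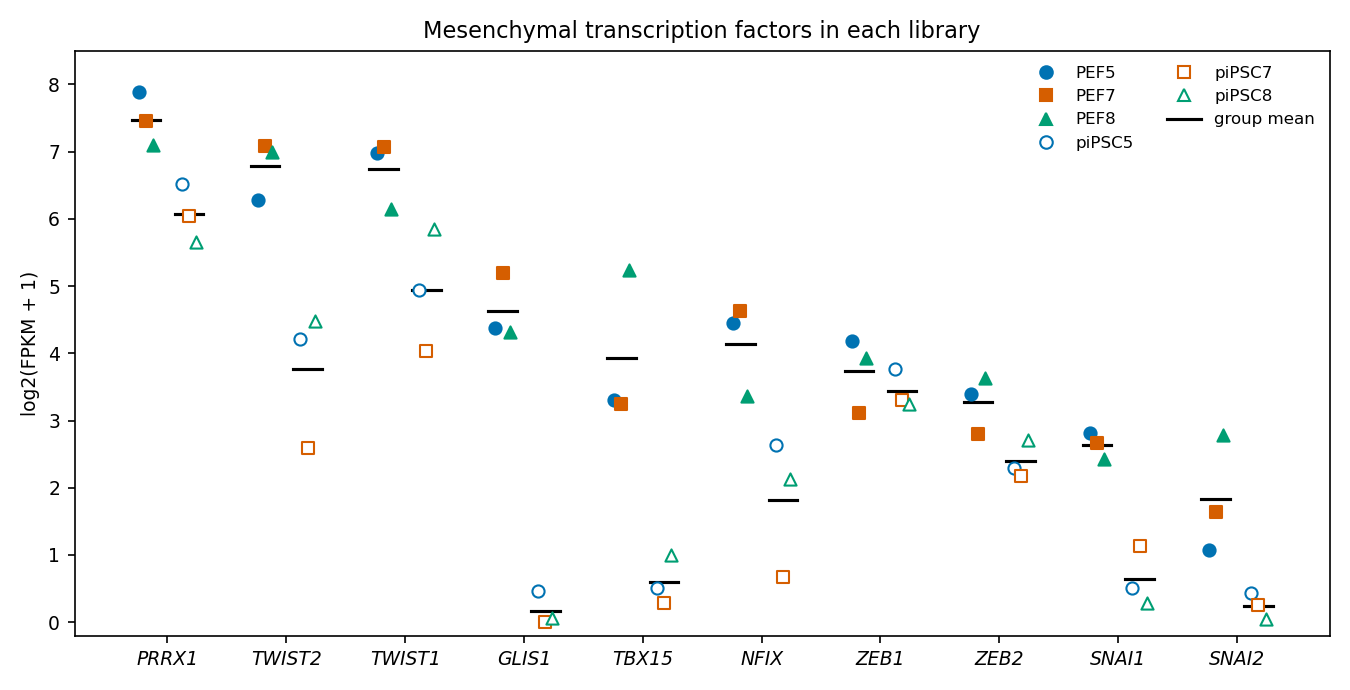
Level of the 10 transcription factors in each library, as log2(FPKM + 1), ordered by mean level in PEFs. Filled symbols are PEF libraries, open symbols the piPSC library of the same line, and bars the mean of 3 libraries. The open symbols lie below all filled symbols for every factor except ZEB1.

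TWIST1 (ENSSSCG00000015370, chromosome 9 from 88289407 to 88290015 of Sscrofa11.1, minus strand) is needed in cranial and limb mesenchyme. Its level was 126, 134 and 69.8 FPKM in PEF5, PEF7 and PEF8, and 29.6, 15.5 and 56.5 FPKM in piPSC5, piPSC7 and piPSC8. The groups did not overlap, but line 8 stood apart: piPSC8 kept 81.0% of the level of PEF8, whereas piPSC5 kept 23.5% and piPSC7 11.6% of their own PEF lines. TWIST1 fell by 1.79 on the log2(FPKM + 1) scale (SE 0.48, limma adjusted p = 0.0202, n = 3 against 3). The call was lost with the lines paired as a replicate block (adjusted p = 0.0519), and without PEF5, PEF7 or piPSC5 (adjusted p = 0.0659, 0.0666 and 0.0587).

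TWIST2 (ENSSSCG00000016343, chromosome 15 from 138228807 to 138229289, plus strand), a close relative that is prominent in dermal fibroblasts, was at 77.0, 134 and 127 FPKM in PEF5, PEF7 and PEF8. In piPSC5, piPSC7 and piPSC8 it was at 17.6, 5.05 and 21.3 FPKM. Here piPSC7 was the lowest library, as it was for TWIST1, and the groups lay far apart. TWIST2 fell by 3.02 on the log2(FPKM + 1) scale (SE 0.51, limma adjusted p = 0.00374), and the value without piPSC7 was -2.44. For both TWIST genes the table used a gene model of the coding sequence alone, of 609 and 483 bases, so fragments in untranslated regions were not counted. The longest run of bases that the coding sequences share was 23, well under the read length of 150.

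PRRX1 (ENSSSCG00000031503, chromosome 4 from 80427687 to 80501718, minus strand) marks limb, craniofacial and dermal mesenchyme and had the highest mean level of the 10 in both groups. In PEF5, PEF7 and PEF8 it was at 235, 174 and 135 FPKM, and in piPSC5, piPSC7 and piPSC8 at 90.6, 64.7 and 49.5 FPKM. The lines kept the same order in both groups, and the piPSC level was 38.6%, 37.2% and 36.6% of the PEF level in lines 5, 7 and 8. PRRX1 fell by 1.40 on the log2(FPKM + 1) scale (SE 0.29, limma adjusted p = 0.0077), and the call held in all 13 alternatives. Its piPSC mean of 68.3 FPKM still exceeded that of 94.3% of the genes tested, and at least 2447 fragments stood behind it in every library. Whether fragments of the mouse feeder fibroblasts add to this level was not tested.

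SNAI1 (ENSSSCG00000032613, chromosome 17 from 51546393 to 51554226, plus strand) encodes Snail, a repressor of CDH1. It was at 6.05, 5.35 and 4.36 FPKM in PEF5, PEF7 and PEF8 and at 0.422, 1.19 and 0.214 FPKM in piPSC5, piPSC7 and piPSC8. The PEF libraries were close together and the piPSC libraries were all far below them, with 10 to 60 fragments each. SNAI1 fell by 2.00 on the log2(FPKM + 1) scale (SE 0.28, limma adjusted p = 0.002).

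SNAI2 (ENSSSCG00000039568, chromosome 4 from 79264878 to 79271802, plus strand) encodes Slug and had the lowest PEF level of the 10. It was at 1.11, 2.11 and 5.91 FPKM in PEF5, PEF7 and PEF8, with PEF8 the highest. In piPSC5, piPSC7 and piPSC8 it was at 0.354, 0.196 and 0.0302 FPKM, from 32, 14 and 2 fragments. In line 8, SNAI2 kept 0.511% of its PEF level (exact 95% interval 0.0618% to 1.86%, counting error only). SNAI2 fell by 1.59 on the log2(FPKM + 1) scale (SE 0.45, limma adjusted p = 0.024), but the call was lost without PEF7, piPSC5, piPSC7 or piPSC8 (adjusted p = 0.054, 0.0545, 0.0547 and 0.0573). The size of both SNAI changes depended on the pseudocount: with 0.1 in place of 1, the log2 fold change was -3.16 for SNAI1 and -3.28 for SNAI2.

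ZEB1 (ENSSSCG00000011025, chromosome 10 from 42145751 to 42214205, plus strand) was at 17.2, 7.61 and 14.2 FPKM in PEF5, PEF7 and PEF8 and at 12.6, 8.93 and 8.47 FPKM in piPSC5, piPSC7 and piPSC8. The groups overlapped, and in line 7 the piPSC level was the higher, at 117% of PEF7. The log2 fold change of (FPKM + 1) was -0.30 (SE 0.32, limma adjusted p = 0.448), and ZEB1 was not called in any of the 13 alternatives, where the fold change ran from -0.63 to -0.08. The gene model of the table starts downstream of the RefSeq start at 42013114 and stops before the RefSeq end at 42216139. Its length of 3389 bases is near that of the longest RefSeq coding sequence, 3387 bases. Fragments from exon parts upstream or downstream of the model were not counted.

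ZEB2 (ENSSSCG00000021343, chromosome 15 from 7498897 to 7632655, plus strand), its paralog, was at 9.53, 5.95 and 11.4 FPKM in PEF5, PEF7 and PEF8 and at 3.92, 3.51 and 5.55 FPKM in piPSC5, piPSC7 and piPSC8. All piPSC values lay below all PEF values, with 41.1%, 58.9% and 48.7% of the PEF level kept in lines 5, 7 and 8. The log2 fold change of (FPKM + 1) was -0.88 (SE 0.28, limma adjusted p = 0.0357), which missed the 2-fold threshold. It passed the threshold at -1.11 after rescaling to the median ratio, -1.27 after rescaling to equal sums, -1.01 with a pseudocount of 0.1, -1.03 with limma's voom on fragments, -1.12 without PEF7 and -1.04 without piPSC8. Its adjusted p was above 0.05 without a filter (0.06) and without PEF5, PEF8, piPSC5 or piPSC7 (0.103, 0.104, 0.1 and 0.0901). An antisense gene that overlaps ZEB2 had 3 fragments in piPSC5 and 0 elsewhere.

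TBX15 (ENSSSCG00000006725, chromosome 4 from 101920027 to 102030626, plus strand) acts in the skeleton and in the dermis. It was at 8.89, 8.44 and 36.9 FPKM in PEF5, PEF7 and PEF8, and at 0.421, 0.222 and 1.01 FPKM in piPSC5, piPSC7 and piPSC8. PEF8 stood far above the other PEF libraries and piPSC8 above the other piPSC libraries, while the level kept was 4.74%, 2.63% and 2.73% in lines 5, 7 and 8. TBX15 fell by 3.33 on the log2(FPKM + 1) scale (SE 0.56, limma adjusted p = 0.00371), and its log2 fold change was -2.67 without PEF8 and -4.63 with a pseudocount of 0.1. PEF8 was also the highest library for SNAI2, for TBX3 (3.43, 5.52 and 28.9 FPKM in PEF5, PEF7 and PEF8) and for EN1, a homeobox gene of ventral limb ectoderm and dermis picked once its values were known (0.830, 1.61 and 42.4 FPKM).

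GLIS1 (ENSSSCG00000003846, chromosome 6 from 158674225 to 158762820, plus strand) is known to promote reprogramming of mouse and human fibroblasts when it is supplied with other factors. The study singled it out on these same libraries together with data on chromatin accessibility at its motif. It also reported the fall in other piPSC lines. In its pig cells, GLIS1 over-expression with OSKM gave more colonies positive for alkaline phosphatase, whereas knock-down made no difference. Here GLIS1 was at 19.9, 35.6 and 18.9 FPKM in PEF5, PEF7 and PEF8, and at 0.377, 0 and 0.0429 FPKM in piPSC5, piPSC7 and piPSC8, from 12, 0 and 1 fragments. Its piPSC mean was the lowest of the 10 factors. In line 7 it was at least 299-fold lower, taking 3 fragments as the limit that a count of 0 allows. In line 8 it kept 0.227% of the PEF level (exact 95% interval 0.00574% to 1.27%). GLIS1 fell by 4.46 on the log2(FPKM + 1) scale (SE 0.30, limma adjusted p = 0.000217), and with a pseudocount of 0.1 the log2 fold change was -6.98.

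NFIX (ENSSSCG00000013742, chromosome 2 from 65954244 to 66057045, minus strand) is known from fetal muscle and brain and is broadly active in fibroblasts. In PEF5, PEF7 and PEF8 it was at 20.9, 23.6 and 9.26 FPKM, and in piPSC5, piPSC7 and piPSC8 at 5.23, 0.587 and 3.37 FPKM. As with the TWIST genes, piPSC7 was the lowest library, with 2.48% of its PEF level against 25.0% in line 5 and 36.4% in line 8. NFIX fell by 2.33 on the log2(FPKM + 1) scale (SE 0.57, limma adjusted p = 0.0149), and the call was lost without PEF5 or PEF7 (adjusted p = 0.0518 and 0.0531). LYL1, which overlaps NFIX on the other strand, had at most 18 fragments in any library. The library kit, per the labels, does not mark strand.

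Because FPKM is per length, the levels of the factors can be set beside each other within a group, though only roughly. The gene models differ: those of TWIST1 and TWIST2 hold the coding sequence alone, whereas those of PRRX1 and SNAI2 are far longer than their coding sequence. What this does to the order was not tested. In PEFs, PRRX1 had a mean level of 181 FPKM, TWIST2 112 and TWIST1 110 (each n = 3), which put them above 98.0%, 96.5% and 96.4% of the genes tested. The values of TWIST1 and TWIST2 overlapped, and those of PRRX1 lay above both. GLIS1 (24.8 FPKM), TBX15 (18.1), NFIX (17.9), ZEB1 (13.0) and ZEB2 (8.96) followed, each overlapping with its neighbour in this order, and SNAI1 (5.25) and SNAI2 (3.05) came last, where SNAI1 overlapped with both ZEB2 and SNAI2. In piPSCs the order of means was PRRX1 (68.3 FPKM), TWIST1 (33.9), TWIST2 (14.6), ZEB1 (9.99), ZEB2 (4.32), NFIX (3.06), SNAI1 (0.607), TBX15 (0.550), SNAI2 (0.193) and GLIS1 (0.140), and ZEB1 and ZEB2 were the only neighbours in this order whose values did not overlap. GLIS1 thus went from the fourth place to the last, and ZEB1 from the seventh to the fourth.

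Each piPSC line was also set beside the PEF line it was made from, as 1 library against 1, with no test. At least 2-fold lower in (FPKM + 1) were 8 of the 10 factors in line 5, 8 in line 7 and 7 in line 8, where 18.6%, 17.2% and 23.8% of all genes tested were, and 6 factors were so in all 3 lines (TWIST2, PRRX1, SNAI1, TBX15, GLIS1 and NFIX). At least 4-fold lower were 5 factors in each line, against 8.59%, 7.84% and 12.0% of all genes tested in lines 5, 7 and 8. Here too the shares over all genes are a reference only, given how the factors were chosen. The median factor kept 24.3% of its PEF level in line 5, 10.4% in line 7 and 26.6% in line 8. The summed level of the 10 factors was 521, 530 and 433 FPKM in PEF5, PEF7 and PEF8, and 161, 99.8 and 146 FPKM in piPSC5, piPSC7 and piPSC8, or 30.9%, 18.8% and 33.7% of the PEF level. PRRX1, TWIST1 and TWIST2 made up most of this sum in every library, so it says little of the other factors. The summed level of the 8 fibroblast markers stood at 5.01%, 2.1% and 2.77%. Since whole cultures were sequenced, fewer cells of a type and less RNA per cell cannot be told apart. Any fragments of the mouse feeder fibroblasts would count towards the level kept, which was not tested.

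**Figure D2:**
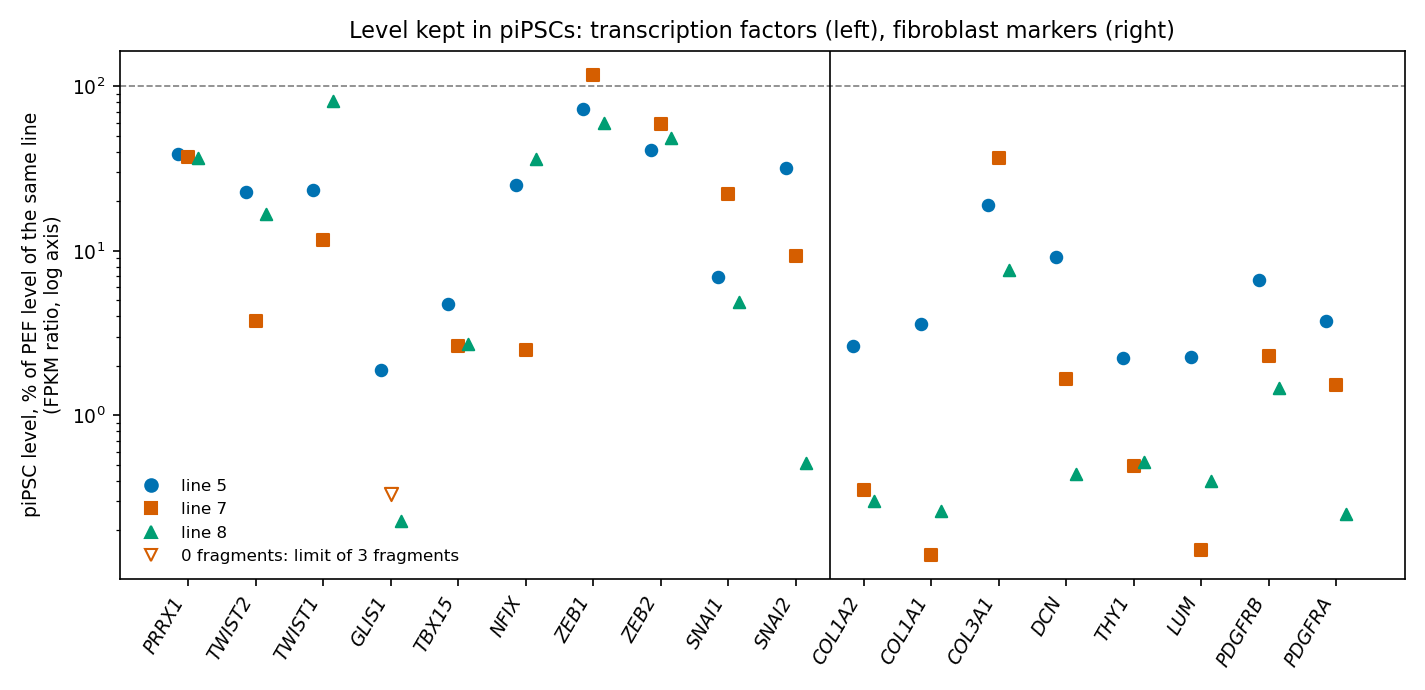
Level kept in each piPSC line, in percent of the FPKM of the PEF line it was made from (log axis, dashed line at 100%), for the 10 factors and for 8 fibroblast markers. PRRX1 lies between 36.6% and 38.6% in all lines, whereas TWIST1 runs from 11.6% to 81.0%. The open triangle is the limit of 3 fragments for GLIS1 in line 7, where no fragment was counted.

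Other genes of the same families moved in both directions. The list held 19 genes, of which 12 passed the filter, 6 fell, 3 rose and 3 were not called, with a median log2 fold change of -0.94. Over all genes tested, 16.7% were lower and 20.2% higher. The 3 rises are near that share and are not read as a change of the list. PRRX2, the paralog of PRRX1, was at 204, 422 and 152 FPKM in PEF5, PEF7 and PEF8 and at 6.06, 1.20 and 4.73 FPKM in piPSC5, piPSC7 and piPSC8. PRRX2 fell by 5.73 on the log2(FPKM + 1) scale (SE 0.54, limma adjusted p = 0.000525), where PRRX1 fell by 1.40. TBX2, a T-box repressor of cell cycle inhibitors, was at 69.6, 66.5 and 75.7 FPKM in PEFs and at 2.42, 0.425 and 0.169 FPKM in piPSCs, and TBX3 at 3.43, 5.52 and 28.9 FPKM in PEFs and at 0.483, 0.0104 and 0 FPKM in piPSCs. TBX2 and TBX3 both fell, with differences of -5.32 and -3.06 on the log2(FPKM + 1) scale (SE 0.40 and 0.69, limma adjusted p = 0.000302 and 0.0112). NFIC and GLIS2 fell as well, with -2.86 and -2.21 on the same scale (SE 0.32 and 0.25, limma adjusted p = 0.000913 and 0.000986).

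GLIS3 was at 8.04, 4.23 and 3.15 FPKM in PEF5, PEF7 and PEF8 and at 0.362, 1.52 and 2.76 FPKM in piPSC5, piPSC7 and piPSC8. GLIS3 fell by 1.31 on the log2(FPKM + 1) scale (SE 0.46, limma adjusted p = 0.0494), a call that was lost in 9 of the 13 alternatives, among them the paired fit with a replicate block (adjusted p = 0.107) and the fits without PEF5, PEF7, PEF8, piPSC5 or piPSC7 (adjusted p = 0.147, 0.0974, 0.0533, 0.128 and 0.0882). The remaining lost calls came with a pseudocount of 0.1, no filter and voom (adjusted p = 0.0643, 0.0892 and 0.0521).

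HAND2, another basic helix-loop-helix factor, known from heart and limb development, was at 0.772, 2.196 and 1.82 FPKM in PEF5, PEF7 and PEF8 and at 52.0, 43.9 and 42.6 FPKM in piPSC5, piPSC7 and piPSC8. All piPSC libraries were close together and far above all PEF libraries, so HAND2 rose by 4.22 on the log2(FPKM + 1) scale (SE 0.26, limma adjusted p = 0.000179) while TWIST1 and TWIST2 fell. NFIA, of the same family as NFIX, was at 1.31, 0.790 and 0.249 FPKM in PEFs and at 9.63, 9.76 and 8.80 FPKM in piPSCs, and rose by 2.59 on that scale (SE 0.27, limma adjusted p = 0.000703). TBX18 rose by 1.52 (SE 0.30, limma adjusted p = 0.00654). The value of NFIB on that scale was 1.15, not a call (SE 0.67, limma adjusted p = 0.188), and passed the test in the paired fit with a replicate block (adjusted p = 0.0451). For TBX20 the value was 0.80 (limma adjusted p = 0.178), and it passed without piPSC8 (1.23, adjusted p = 0.034). The remaining 7 genes (SNAI3, TBX1, TBX4, TBX5, TBX22, HAND1 and TCF15) were below 1 FPKM in every library.

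**Figure D3:**
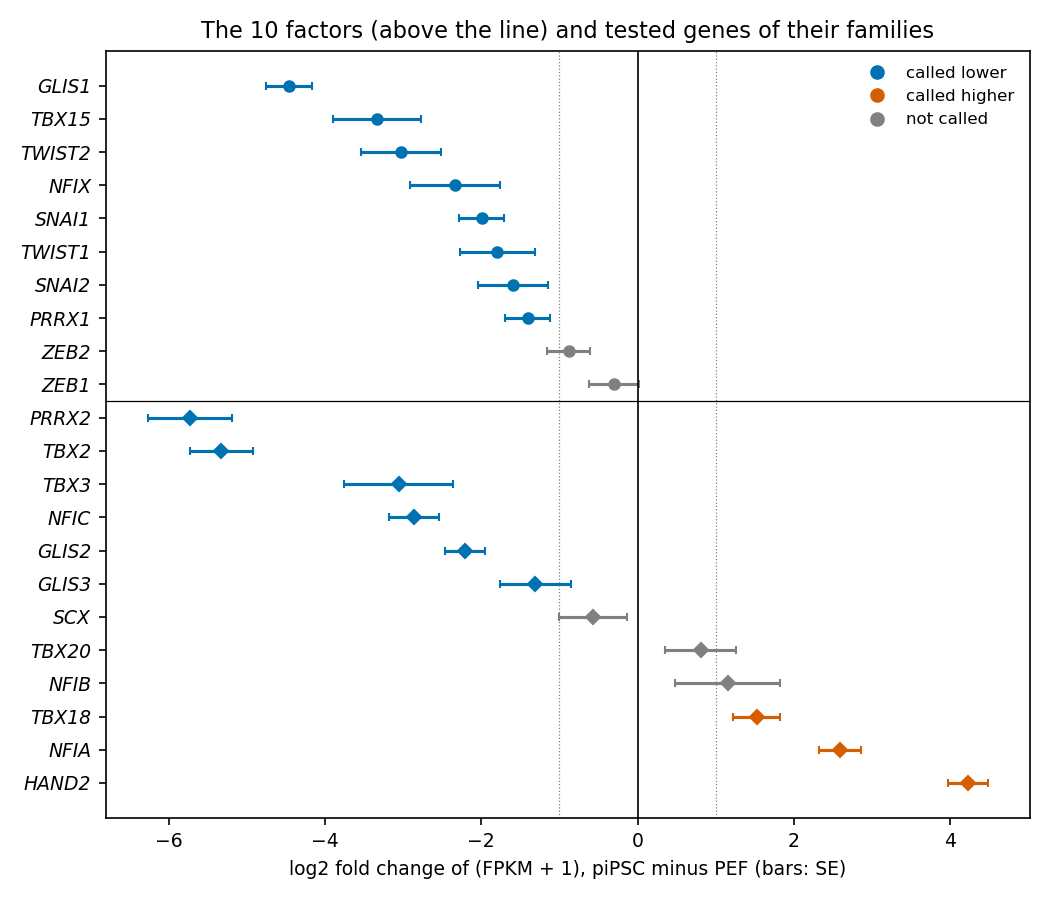
Log2 fold change of (FPKM + 1), piPSC minus PEF, of the 10 factors (circles, above the line) and of the 12 tested genes of their families (diamonds, below it). Bars are SE from limma, dotted lines mark 2-fold, blue is called lower, orange called higher and grey not called. The factors lie between -4.46 and -0.30, whereas their families run from -5.73 for PRRX2 to 4.22 for HAND2.

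Of 24 other transcription factors of mesenchyme and dermis, 19 were tested, 8 fell, 4 rose and 7 were not called, with a median log2 fold change of -0.40. Among all genes tested, 16.7% were lower and 20.2% higher. The 4 rises are near that share and are not read as a change of the list. CREB3L1, a membrane-bound factor that drives collagen genes, was at 65.1, 60.6 and 57.6 FPKM in PEF5, PEF7 and PEF8 and at 1.56, 1.00 and 0.287 FPKM in piPSC5, piPSC7 and piPSC8. CREB3L1, FOXF1 (a forkhead factor of mesoderm) and MSX1 (a homeobox factor of limb and craniofacial mesenchyme) fell, with differences of -5.05, -3.00 and -2.56 on the log2(FPKM + 1) scale (SE 0.27, 0.39 and 0.42, limma adjusted p = 0.000145, 0.00144 and 0.0034). NR2F1, an orphan nuclear receptor, was at 3.07, 3.05 and 0.908 FPKM in PEFs and at 21.0, 21.9 and 25.9 FPKM in piPSCs, with no overlap. NR2F1 rose by 2.92, EBF1, a factor of B cell and fat cell development, by 2.50 and MEOX2, a homeobox factor of the somites, by 2.06 (SE 0.33, 0.39 and 0.31, limma adjusted p = 0.000892, 0.00282 and 0.00235). EN1, at -2.51 on the same scale, was not called (SE 1.14, limma adjusted p = 0.105), but was with a pseudocount of 0.1 (-4.98, adjusted p = 0.0266) and without PEF8 (-1.08, adjusted p = 0.0262).

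The factors work with partner proteins. TWIST proteins pair with E-proteins, ID proteins compete for those E-proteins, and SNAI and ZEB proteins recruit corepressors such as CTBP1 and CTBP2. Of 25 such genes, 22 were tested, 4 fell, 5 rose and 13 were not called, with a median log2 fold change of 0.17. These counts are near the shares over all genes tested, of which 16.7% were lower and 20.2% higher. No change of the list as a whole is read from them. The genes that fell were ID2, ID3, ID4 and AJUBA. ID3 was at 711, 839 and 662 FPKM in PEF5, PEF7 and PEF8 and at 8.45, 15.4 and 2.86 FPKM in piPSC5, piPSC7 and piPSC8. ID3, ID2 and AJUBA, a LIM protein that SNAI1 binds, had differences of -6.45, -3.86 and -2.39 on the log2(FPKM + 1) scale (SE 0.49, 0.72 and 0.29, limma adjusted p = 0.00032, 0.00528 and 0.00113).

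Of the E-proteins, TCF3 had a log2 fold change of (FPKM + 1) of 0.63 (SE 0.19, limma adjusted p = 0.0288), which is under 2-fold, TCF12 0.33 (SE 0.34, limma adjusted p = 0.448) and TCF4 -0.01 (SE 0.24, limma adjusted p = 0.97). TCF4 was at 5.50, 4.94 and 8.65 FPKM in PEFs and at 6.79, 5.29 and 6.41 FPKM in piPSCs. CTBP1 and CTBP2 had log2 fold changes of 0.07 and -0.18 (SE 0.17 and 0.15, limma adjusted p = 0.756 and 0.357). The signs of TCF4 and CTBP1 turned with the scaling or with the libraries used. These 5 genes were picked with their values known. The largest increases were those of EZH2, the methyltransferase of Polycomb repressive complex, HDAC2, a histone deacetylase, and PRMT5, an arginine methyltransferase, with 2.39, 1.85 and 1.65 on the log2(FPKM + 1) scale (SE 0.45, 0.17 and 0.19, limma adjusted p = 0.00537, 0.000517 and 0.000944). EZH2 was at 7.82, 1.60 and 3.38 FPKM in PEFs and at 23.9, 29.4 and 18.3 FPKM in piPSCs.

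SNAI, TWIST and ZEB proteins are short-lived, and 11 genes known for their phosphorylation and breakdown were all tested. Of these, 2 fell, 1 rose and 8 were not called, with a median log2 fold change of -0.22. Since 16.7% of all genes tested were lower and 20.2% higher, these counts are not read as a change of the list. LATS2, a Hippo pathway kinase that phosphorylates SNAI1, was at 17.5, 23.5 and 19.6 FPKM in PEF5, PEF7 and PEF8 and at 5.38, 3.12 and 4.75 FPKM in piPSC5, piPSC7 and piPSC8, and fell by 1.98 on the log2(FPKM + 1) scale (SE 0.23, limma adjusted p = 0.000937). CTDSP1, a phosphatase of SNAI1, fell by 1.05 (SE 0.35, limma adjusted p = 0.0418), but was not called without PEF5, PEF7, PEF8, piPSC7 or piPSC8 (adjusted p = 0.0932, 0.125, 0.0604, 0.0735 and 0.0672). ATM, a kinase of the DNA damage response that stabilizes ZEB1, rose by 1.31 (SE 0.23, limma adjusted p = 0.00454).

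Most of the listed epithelial genes, many of which these repressors are known to silence, were at low levels in both groups. Of 26 listed, CRB3, KRT19 and GRHL2 were not analysed here, and 16 of the other 23 were under 1 FPKM in every library. Only 5 passed the filter, of which 0 fell, 2 rose and 3 were not called. Over all genes tested, 16.7% were lower and 20.2% higher, and with 5 genes no change of the list is read. The summed level of the 23 genes was 3.69, 4.29 and 4.58 FPKM in PEF5, PEF7 and PEF8 and 16.7, 25.0 and 19.2 FPKM in piPSC5, piPSC7 and piPSC8, or 452%, 583% and 419% of the PEF level. Of these piPSC sums, GRHL1 alone made up 8.33, 10.5 and 11.3 FPKM, and RAB25 2.38, 2.27 and 1.55 FPKM. The sums therefore do not show a broad gain over the list. CDH1, whose upstream E-boxes are printed above, had 1, 11 and 1 fragments in PEF5, PEF7 and PEF8 and 0, 6 and 7 fragments in piPSC5, piPSC7 and piPSC8, at most 0.117 FPKM in any library. For EPCAM, an epithelial adhesion protein, 4, 6 and 7 fragments were counted in the PEF libraries against 0, 0 and 1 in the piPSC libraries. Both genes were under the filter and were not tested, and these counts are too few to compare the groups.

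The genes called higher were GRHL1 and RAB25. GRHL1, a grainyhead-like factor of epidermis, had 1, 1 and 0 fragments in PEF5, PEF7 and PEF8 and 261, 261 and 260 fragments in piPSC5, piPSC7 and piPSC8, or 8.33, 10.5 and 11.3 FPKM. GRHL1 rose by 3.43 on the log2(FPKM + 1) scale (SE 0.20, limma adjusted p = 0.000179). RAB25, a GTPase of epithelial membrane traffic, was at 0.239, 0.0993 and 0.125 FPKM in PEFs and at 2.38, 2.27 and 1.55 FPKM in piPSCs, and rose by 1.40 (SE 0.23, limma adjusted p = 0.00317). Among the genes not called, all piPSC values also lay above all PEF values for MARVELD2, OCLN and CLDN3, genes of tight junctions named here with their values known. MARVELD2 was at 0.0958, 0.117 and 0.0322 FPKM in PEFs and at 0.389, 0.862 and 1.33 FPKM in piPSCs, under the filter. OCLN and CLDN3 had 0 fragments in PEFs, and 2, 89 and 3 and 4, 17 and 3 fragments in piPSC5, piPSC7 and piPSC8. Outside piPSC7 these counts are as few as those of CDH1 and EPCAM, and too few to compare the groups. EPCAM, of the same list, had fewer fragments in piPSCs than in PEFs. No gain of tight junctions is read from these picked genes.

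Of 20 mesenchymal genes, 19 were tested, 12 fell, 1 rose and 6 were not called, with a median log2 fold change of -3.45. Among all genes tested, 16.7% were lower and 20.2% higher. The list was chosen with earlier results of these data known. MMP2, a matrix metalloprotease, and COL5A1, a fibrillar collagen chain, fell, with differences of -7.18 and -6.15 on the log2(FPKM + 1) scale (SE 1.02 and 0.64, limma adjusted p = 0.00197 and 0.000731). The gene that rose was CDH2, the cadherin gained in the classical epithelial-mesenchymal transition. CDH2 (chromosome 6 from 112396329 to 112628946, minus strand) was at 7.58, 1.89 and 1.37 FPKM in PEF5, PEF7 and PEF8 and at 75.5, 68.5 and 65.9 FPKM in piPSC5, piPSC7 and piPSC8. All piPSC values were far above all PEF values, and CDH2 rose by 4.19 on the log2(FPKM + 1) scale (SE 0.47, limma adjusted p = 0.0009).

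**Figure D4:**
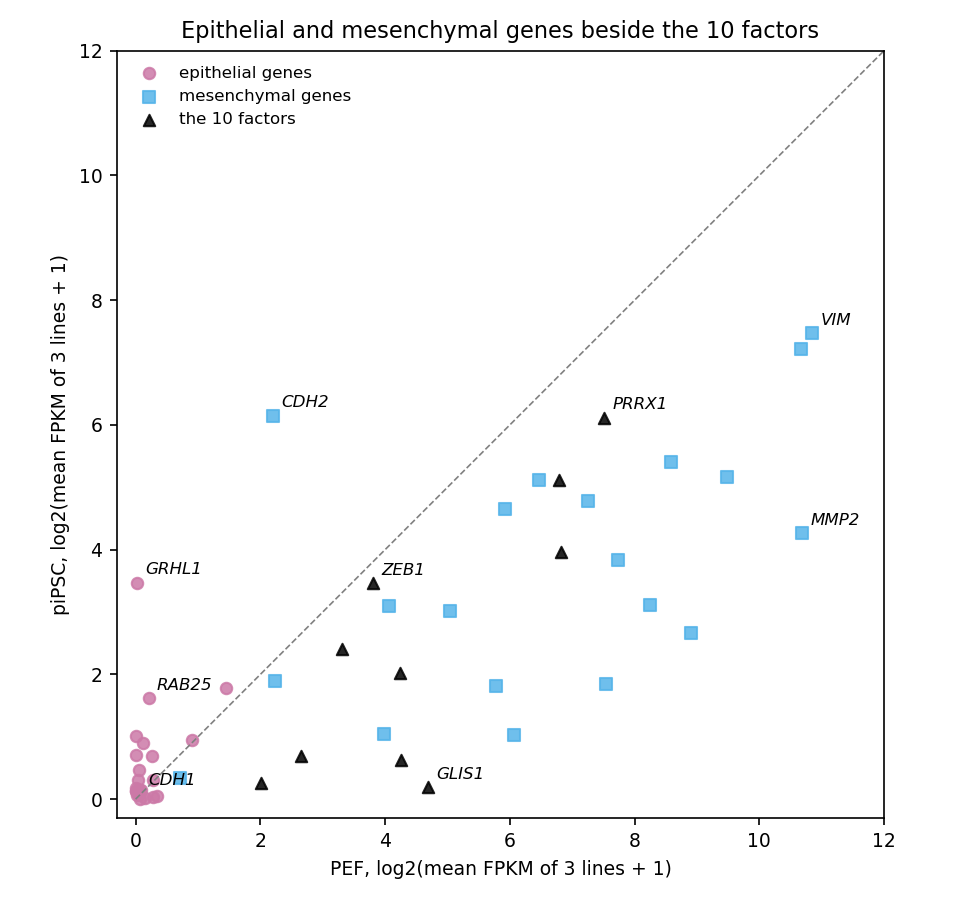
Mean level of 23 epithelial genes (circles), 20 mesenchymal genes (squares) and the 10 factors (triangles) in PEFs (x) and piPSCs (y), each as log2 of the mean FPKM of 3 lines plus 1, with the dashed line marking equal levels. Most epithelial genes sit near the origin, CDH1 among them, GRHL1 rises along the y axis, and CDH2 is the mesenchymal gene above the line.

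For each factor, the tested gene with the most similar pattern over the 6 libraries was found by the Euclidean distance between log2(FPKM + 1) values centred on the mean of each gene. This is a description over 6 libraries in which the difference between the groups dominates. The smallest distances were 0.175 for SNAI1, to LRRC8C (a subunit of a volume-regulated anion channel), 0.189 for ZEB1, to ENSSSCG00000035139, which stayed at or below 1.30 FPKM, 0.236 for ZEB2, to CDADC1, and 0.253 for PRRX1, to ZC3H12C. SNAI2 was nearest to ACP2 (0.354), a lysosomal acid phosphatase. TBX15 was nearest to PTX3 (0.461), a secreted pentraxin that was likewise highest in PEF8, at 6.50, 4.86 and 29.5 FPKM in PEF5, PEF7 and PEF8. TWIST2 was nearest to CYP1B1 (0.578), GLIS1 to PMP22 (0.591), NFIX to PLPP3 (0.601) and TWIST1 to PRR16 (0.608). Among the factors themselves, the closest pairs were ZEB1 with ZEB2 (1.05), PRRX1 with SNAI1 (1.11) and TWIST1 with NFIX (1.27), and ZEB1 and GLIS1 were the farthest apart (5.30).

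**Figure D5:**
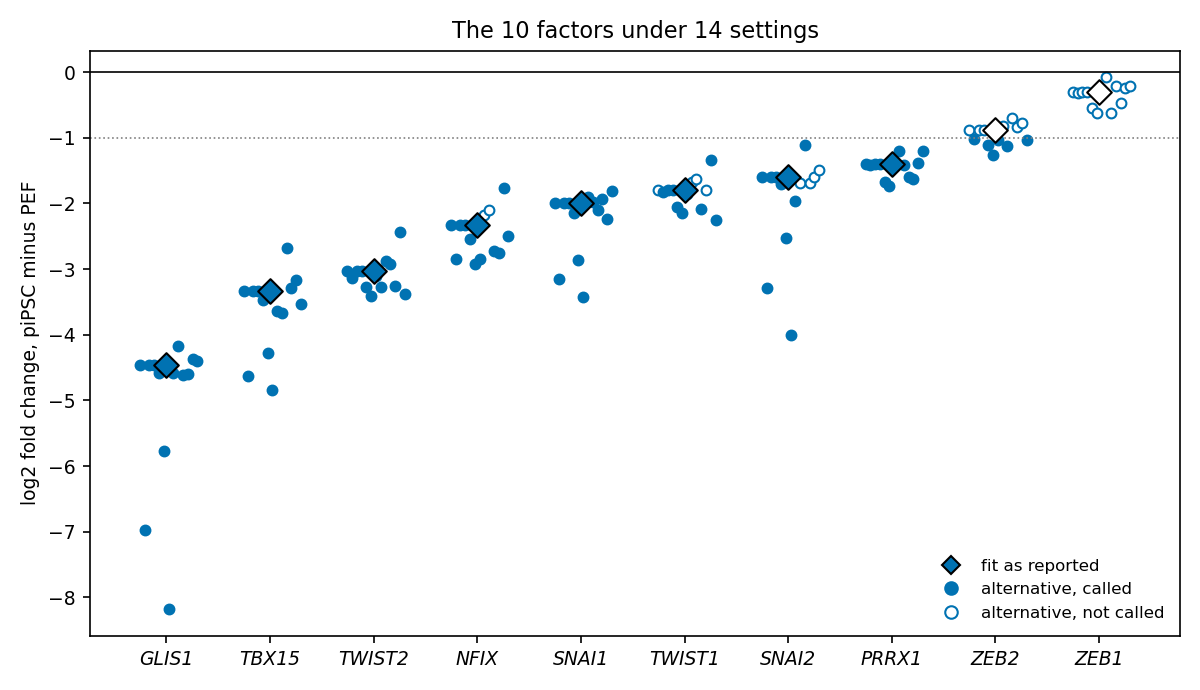
Log2 fold change of the 10 factors, piPSC minus PEF, in the fit as reported (diamonds) and in 13 alternatives (circles), with filled symbols where the factor was called and the dotted line at 2-fold lower. The direction was the same in every fit shown. GLIS1, TBX15, TWIST2, SNAI1 and PRRX1 are filled throughout, ZEB1 is open throughout, and GLIS1 runs from -8.18 to -4.17.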

How the data were processed

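The authors deposited FPKM values per gene, the unit used here. The submitters' processing notes name HISAT2 2.1.0, HTSeq 0.6.0 and Bowtie2 2.2.3 without saying which served the RNA-seq. Poly-A libraries were read over 150 bases. Of the 18007 genes, 3375 were listed by identifier only, and 902 of these were given a symbol from a table of gene names. Of 14007 symbols shared with RefSeq on Sscrofa11.1, 99.7% lie at overlapping positions. Sequences come from that genome.

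FPKM values of all 18007 genes were whole multiples of 1 fragment (tolerance 0.001 fragments), which gave fragments and depth. Limits and intervals cover counting error only. Groups were compared with limma 3.58.1 in R 4.3.3 (lmFit, eBayes with a trend) on log2(FPKM + 1), two-sided, with Benjamini-Hochberg adjustment over the 12428 genes whose mean reached 0.5 FPKM, unpaired like the study's general statement on statistics. For RNA-seq the study itself compared each piPSC line with its own PEF line, which the counts within lines follow here without a test. A fold change on this scale understates the change of low genes. The fit and the recovery of fragments were tested on simulated data. An exact permutation test of 3 against 3 cannot give a p under 0.1, so none was used. Shares, distances and plots used numpy 2.4.6, pandas 2.3.3 and matplotlib 3.10.9 under Python 3.11.15.

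Numbers pair the libraries, because a PEF line and the piPSC line derived from it carry the same number. Correlations of the deviations from group means were 0.0921, 0.0946 and 0.08 within a number and -0.121 to 0.0553 between numbers. The replicates are lines taken from embryos of 1 litter.

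The factors and gene lists were chosen with earlier results of these data known. Named are all 10 factors, the 3 largest called increases and decreases of each list, the markers and the nearest genes, apart from 1 gene that is not reported here. Family genes, E-proteins, CTBP1, CTBP2, EN1, CDH1 and EPCAM were added after their values were seen. Alternatives were the line as a replicate block, 0.1 as pseudocount, no filter, a filter at 1 FPKM, both rescalings, voom on fragments, and leaving out each library. For the counts within lines they were a pseudocount of 0.1, a 4-fold threshold and both rescalings.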

Additional observations from a re-analysis of the deposited data

How the results depend on the processing

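The number of the 10 factors called lower, 8 as reported, was 9 with a pseudocount of 0.1, with either rescaling and with voom, 8 without a filter or with a mean of at least 1 FPKM, and 6 to 8 when 1 library was left out (6 without PEF5, PEF7 or piPSC5, and 7 without piPSC7). In the paired fit with a replicate block it was 7, and TWIST1, GLIS3 and NFIB were the only genes of the 10 factors and their families whose call changed. The calls of TWIST2, PRRX1, SNAI1, TBX15 and GLIS1 held in all 13 alternatives. Genes of protein turnover called lower, 2 as reported, were 1 without a filter, 4 after rescaling to equal sums, and between 1 and 2 when 1 library was left out. With a 4-fold threshold, 5 factors were lower in line 5, 5 in line 7 and 5 in line 8. The fold change of TCF4 turned to 0.008 with voom, 0.20 without PEF8 and 0.079 without piPSC7 (range without 1 library -0.15 to 0.20), and that of CTBP1 to -0.195 after rescaling to the median ratio, -0.25 after rescaling to equal sums and -0.058 without PEF8. The cause was not tested. Over all genes, leaving out 1 library gave 1836 to 2075 genes lower and 2217 to 2641 higher. Depth limits what can be said of SNAI1, SNAI2, TBX15 and GLIS1 in piPSCs, where 0 to 60 fragments stood behind each value. The same holds for TWIST2 and NFIX in piPSC7, with 29 and 48 fragments.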
